A study of Sus scrofa with 37 samples.

Results

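The granins and the enzymes that cut and trim prohormones were followed in pig tissue, in pieces of pancreas and in islets kept in culture. The 10 genes are the granins CHGA, CHGB, SCG2, SCG3 and VGF, the prohormone convertases PCSK1 and PCSK2, their binding proteins PCSK1N and SCG5, and the carboxypeptidase CPE. They were chosen by gene symbol, and each matched 1 Ensembl pig identifier of the 25880 in the count tables (CHGA ENSSSCG00000002456, CHGB ENSSSCG00000039779, SCG2 ENSSSCG00000023032, SCG3 ENSSSCG00000004630, VGF ENSSSCG00000039053, PCSK1 ENSSSCG00000014169, PCSK2 ENSSSCG00000007083, SCG5 ENSSSCG00000004807, PCSK1N ENSSSCG00000021328, CPE ENSSSCG00000008854). RNA had been sequenced from 50 mg pieces of the duodenal lobe of the pancreas and from purified islets that had floated in culture for 7 days. Every sample but 1 carries a label of High or Low islet density, and the series title names the comparison of higher with lower density as its purpose. The labels give no strain, age or sex, and do not say how density was measured. Of 37 samples, 35 had a column of counts: for pancreas 8 were High and 9 Low, for islets 8 were High and 9 Low, and 1 more islet library, of animal 12AS51, carries no density label. There were 16 animals with a library of each tissue, and the 2 tissues of an animal do not always share a label: 12FS135 and 12FS161 are Low for pancreas and High for islets, and 15LS26 and 16IS5 the reverse. The islet samples of 15LS27 and 15LS30 were not analysed here. Both carry the label High, so the labels of 15LS30 differ between its tissues as well, with Low for its pancreas.

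Peptide hormones such as insulin and glucagon are made as longer precursors that are sorted into dense-core secretory granules. Granins are acidic proteins that are packed into these granules with the hormones and are themselves precursors of peptides. In the maturing granule PCSK1 and PCSK2 cut precursors after pairs of basic residues, and CPE removes the basic residues that remain. SCG5, also called 7B2, accompanies PCSK2 through its maturation, and PCSK1N, whose product is proSAAS, inhibits PCSK1. These genes are active in the islet cells that make hormones and in other neuroendocrine cells, while the acinar cells that make up most of the pancreas secrete digestive enzymes by another route.

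The islet libraries held 3237653 to 6702589 gene counts. The High pancreas libraries held 1855075 to 3922006, but 7 of the 9 Low pancreas libraries (12FS135 and the 6 animals whose code begins with 14) held only 265000 to 536014 and are called shallow below. The other 10 pancreas libraries, all 8 High and 2 Low (12FS161 and 15LS30), are called deeper. Levels are counts per 1000000 gene counts in the library (CPM), which are not scaled for gene length, so levels of different genes are not compared. A gene with at most 3 counts in a library was taken as at the floor, which is 5.60 to 11.3 CPM in the shallow libraries. Acinar genes summed to 5.07 to 514 CPM in islets and to 10829 to 221191 CPM in pancreas, which do not overlap. Beta cell genes summed to 2179 to 61922 CPM in islets and 74.2 to 7946 CPM in pancreas, and these overlapped only at the islets of 12AS51 (2179) and the pancreas of 15LS30 (7946). Within the pancreas the acinar sum was 155219 to 221191 CPM in the High libraries and 10829 to 24572 CPM in the shallow ones. The groups differ in depth as well as in label, and these cannot be told apart for the shallow libraries. There were 3 libraries that stood apart for the 10 genes. Their summed share of counts was 1.91% to 3.40% in 17 islet libraries but 0.600% in the islets of 12AS51, where 2 identifiers without a symbol (ENSSSCG00000018061 and ENSSSCG00000018063) took 74.6% of counts. The share was 0.0132% to 0.112% in 16 pancreas libraries and 0.633% in the Low pancreas of 15LS30. In the islets of 15AS28 the same 2 identifiers took 38.0% of counts, and several of the genes were low. In RNA from whole tissue, fewer cells of a type and less RNA per cell cannot be told apart. Each library comes from a different animal within its group, and the p-values measure the spread between these animals.

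All 10 genes were higher in cultured islets than in pancreas. Among all genes tested, 31.1% were called higher in islets at an adjusted p of 0.05 in edgeR's quasi-likelihood test, and the median log2 fold change of the 10 was 5.08 against −0.01 over all 12339 tested genes. In the other direction 31.5% of genes were called lower. Every one of the 10 stood within the 18 largest increases of the table. The plot of levels in each library shows the distance between the tissues and the few libraries that bridge it.

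**Figure D1:**
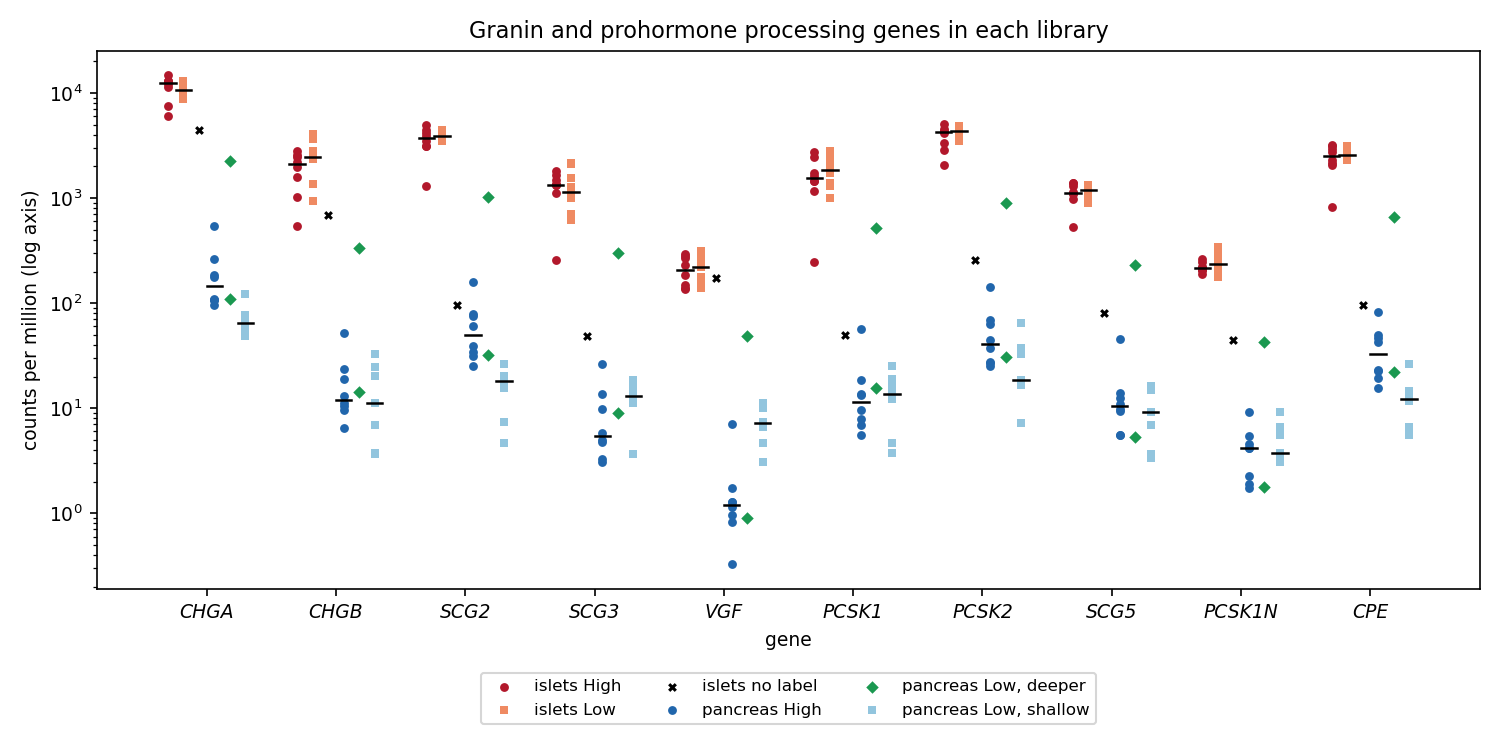
CPM (log axis) of the 10 genes in each library, with islets High and Low, the islets without a label, pancreas High, and the deeper and shallow Low pancreas libraries side by side; black bars are group medians of 3 or more libraries. The islet libraries lie above the pancreas libraries except for the islets of 12AS51 (crosses), the lowest islets High library (15AS28) and the upper green diamond (the pancreas of 15LS30, 2263 CPM for CHGA); levels of different genes are not comparable.

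Among the granins, CHGA ranged from 4462 to 14791 CPM in the 18 islet libraries (median 11748) and from 48.5 to 2263 CPM in the 17 pancreas libraries (median 106). Every islet library stood above every pancreas library. The log2 fold change was 5.30 (SE 0.48, edgeR adjusted p = 1.11e-12). CHGB, a second chromogranin, ranged from 542 to 4078 CPM in islets (median 2411) and from 3.64 to 338 CPM in pancreas (median 13.0). It did not overlap either, and its log2 fold change of 5.79 (SE 0.49, edgeR adjusted p = 1.43e-13) ranked 2 among all tested genes, with CHGA at rank 3. VGF, a granin whose peptides act in neurons and endocrine cells, ranged from 135.4 to 315 CPM in islets (median 203) and from 0.325 to 48.8 CPM in pancreas (median 3.09). Its groups were apart as well, with a log2 fold change of 5.23 (SE 0.52). In 11 of the 17 pancreas libraries VGF was at the floor of 3 counts or fewer, so its pancreas level there is set by single counts.

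SCG2, the precursor of secretoneurin, ranged from 96.4 to 4990 CPM in islets (median 3822) and from 4.64 to 1022 CPM in pancreas (median 31.4). SCG3, a granin that binds chromogranin A at the granule membrane, ranged from 48.6 to 2158 CPM in islets (median 1298) and from 3.06 to 302 CPM in pancreas (median 11.2). Both overlapped between the tissues at the islets of 12AS51, which were low, and the pancreas of 15LS30, which was high. For SCG2 the pancreas of 16CS60 (160.6 CPM) also stood above the islets of 12AS51, and for SCG3 the islets of 15AS28 (256 CPM) also stood below the pancreas of 15LS30. Their log2 fold changes were 4.85 (SE 0.49) and 5.10 (SE 0.48).

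The convertase PCSK1 ranged from 49.5 to 2780 CPM in islets (median 1676) and from 3.73 to 523 CPM in pancreas (median 13.5), a log2 fold change of 4.86 (SE 0.51). PCSK2 ranged from 257 to 5049 CPM in islets (median 4236) and from 7.28 to 889 CPM in pancreas (median 32.8), a log2 fold change of 5.08 (SE 0.44). Both overlapped again at the islets of 12AS51 and the pancreas of 15LS30. For PCSK1 the islets of 15AS28 (246 CPM) also lay below the pancreas of 15LS30, and the pancreas of 16CS60 (57.1 CPM) above the islets of 12AS51. SCG5, the companion of PCSK2, rose by the same 5.08 (SE 0.40), with 81.0 to 1405 CPM in islets and 3.37 to 233 CPM in pancreas. PCSK1N rose by 4.69 (SE 0.30), the smallest increase of the 10 and the one with the smallest error. It ranged from 44.5 to 343 CPM in islets and from 1.72 to 43.0 CPM in pancreas, without overlap. CPE rose by 4.91 (SE 0.46), from 5.60 to 664 CPM in pancreas to 95.2 to 3200 CPM in islets. In the RefSeq gene table PCSK1 overlaps a long non-coding RNA, LOC106508433, and without a stated strand setting reads of the 2 cannot be told apart.

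With all libraries, CHGA, CHGB, VGF and PCSK1N did not overlap between the tissues, and 0.259% of tested genes were higher in islets in that way (2.29% were lower). Without the islets of 12AS51 and the pancreas of 15LS30, none of the 10 overlapped, and 9.59% of tested genes were higher without overlap. All 10 remained called higher in each of the 9 other ways of fitting this comparison. The smallest log2 fold change among them was 4.26, for SCG2. The fitted fold changes follow group means on scaled totals and need not match the medians given above. In pancreas the mean of PCSK1 was 45.1 CPM with 15LS30 and 15.2 CPM without it, and that of VGF 6.75 and 4.12 CPM.

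The genes around this pathway did not all rise with them. Of 5 tested genes of other proprotein convertases, none rose and 3 fell in islets: PCSK6 (log2 fold change −2.54), PCSK5 (−2.24) and PCSK7 (−1.37). FURIN (−0.20) and MBTPS1 (0.19) did not pass. These are convertases of the constitutive secretory route and the Golgi, and the median of this list was −1.37. Of 9 tested genes of peptide trimming and modification, 5 rose and 2 fell, with a median of 1.38. The largest changes were those of QPCT, which closes N-terminal glutamine into a ring (4.19), PAM, the peptide-amidating enzyme (3.16), and CPM, a carboxypeptidase of the cell surface (−2.64). Of 15 tested genes of granule biogenesis and membrane, 8 rose and 3 fell, with a median of 0.68. The granule membrane phosphatase-like protein PTPRN (4.33), the zinc transporter SLC30A8 (3.94) and BAIAP3 (3.33) rose most. All 7 tested hormone and peptide precursors rose, with a median of 4.55, and GAL (6.10), INS (5.08) and GCG (4.75) rose most. These lists were written with earlier results of these data known, and their counts are descriptions.

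**Figure D2:**
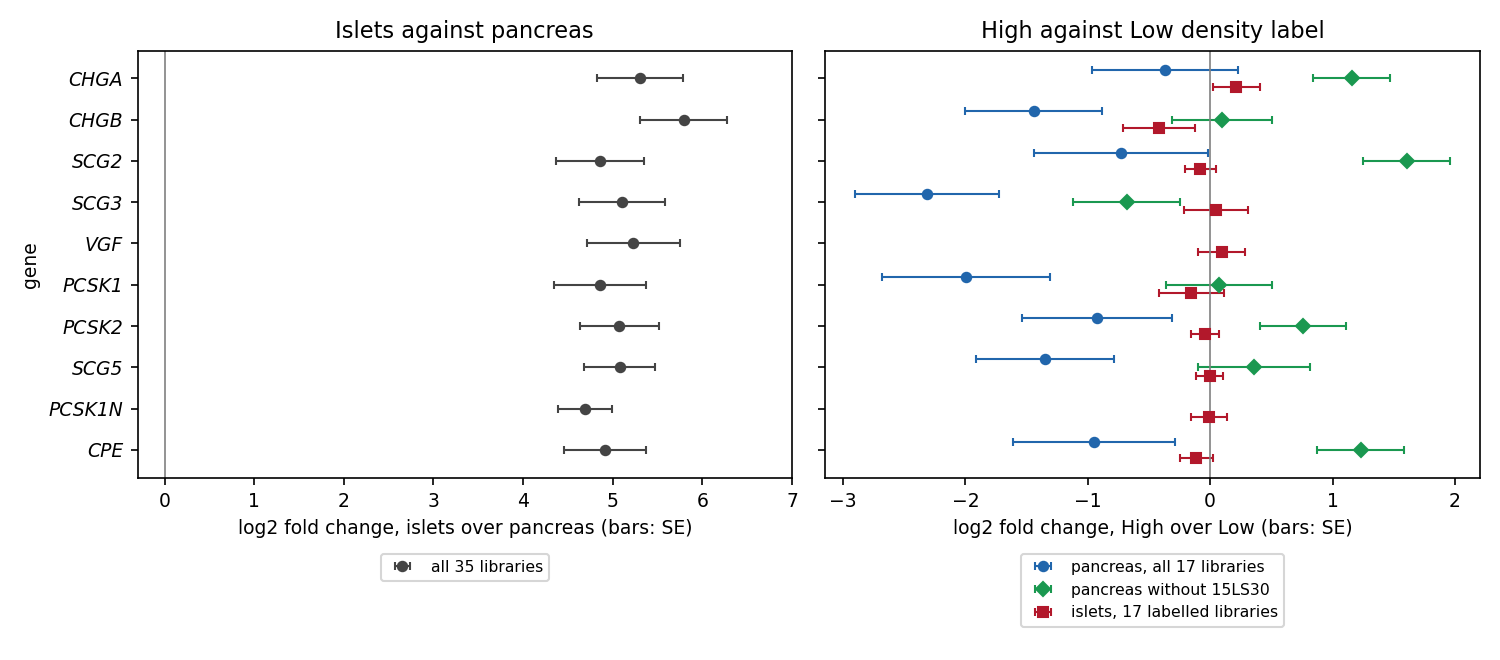
Log2 fold changes with SE bars from edgeR: left, islets over pancreas in all 35 libraries, and right, High over Low density label in pancreas with and without the library of 15LS30 and in islets. The 10 increases in islets lie between 4.69 and 5.79, while the pancreas estimates move from negative to positive for 7 of the 8 tested genes when 15LS30 is left out and the islet estimates lie between −0.42 and 0.21.

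To see whether the members did more than follow the hormones, each gene was set against the summed counts of INS, GCG, SST and PPY in the same library. This comparison was chosen after the values had been seen. A ratio within a library does not depend on the scaling of its total. Depth still matters where a gene has few counts, as in the shallow libraries. There the ratio is set by single counts and, in the tests, by the constant added to each count. CHGA stood at a median of 219 counts per 1000 hormone counts in islets and 197 in the 10 deeper pancreas libraries, and PCSK1N at 5.02 and 4.05. VGF stood at 4.61 in islets and 1.33 in deeper pancreas, CHGB at 50.2 and 18.8, and SCG3 at 23.2 and 11.4. PCSK1 stood at 31.7 and 15.6, SCG5 at 24.6 and 12.0, and PCSK2 at 83.1 and 54.1.

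Per hormone count, 6 of the 10 genes were higher in islets by a two-sided permutation test adjusted over the 10. The test was run on these 10 genes alone, so no share of all genes can be set beside the count. The log2 differences were 1.38 for VGF (permutation adjusted p = 0.0017), 1.30 for CHGB (0.00252), 1.27 for SCG3 (0.0021), 0.83 for PCSK1 (0.019), 0.81 for SCG5 (0.0014) and 0.56 for PCSK2 (0.0021). VGF rests on 3 counts or fewer in 5 of the 10 deeper pancreas libraries. CHGA (0.37, permutation adjusted p = 0.204), CPE (0.33, 0.108), PCSK1N (0.25, 0.238) and SCG2 (0.19, 0.272) did not pass. In the 9 animals with islets and a deeper pancreas library, PCSK1 was higher per hormone count in the islets of 9, SCG3, VGF and PCSK2 in 8, and CHGB and SCG5 in 7. The exact sign-flip test over these animals kept 5 of the 6 calls, and CHGB missed it (adjusted p = 0.0587). Without the islets of 12AS51 and 15AS28, SCG2 (0.31, permutation adjusted p = 0.039) and CPE (0.43, 0.0196) passed as well. With INS alone as the denominator, PCSK1 (0.60, permutation adjusted p = 0.0764) and PCSK2 (0.33, 0.146) no longer passed. With the shallow libraries included none of the 10 passed (lowest permutation adjusted p = 0.224).

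Ratios between partners within a library were compared for 4 pairs in 3 comparisons. None of the 12 passed an adjusted p of 0.05. The log2 ratio of PCSK1N to PCSK1, inhibitor to enzyme, averaged −2.61 ± 1.04 (SD, n = 18) in islets and −1.62 ± 1.13 (SD, n = 17) in pancreas, a difference of −0.996 (permutation adjusted p = 0.112). Without the islets of 12AS51 and 15AS28, chosen after the values were seen, the difference was −1.30 (permutation adjusted p = 0.00096). In the paired sign-flip test it was −1.23 and higher in islets in only 3 of 16 animals (exact adjusted p = 0.0319). It was −0.58 without the shallow libraries (permutation adjusted p = 0.312), so the value depends on the shallow libraries. The log2 ratio of CHGA to CHGB averaged 2.42 ± 0.69 (SD, n = 18) in islets and 2.97 ± 0.86 (SD, n = 17) in pancreas, a difference of −0.55 (permutation adjusted p = 0.128). It passed without the shallow libraries (−0.93, permutation adjusted p = 0.025) and in the paired test (−0.61, exact adjusted p = 0.0319). For PCSK1 to PCSK2 (−0.03) and SCG5 to PCSK2 (−0.07) the tissues differed by less than the SD of either.

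The members followed the hormones from library to library in the deeper pancreas, and the 10 genes did so unequally. PCSK2 had a Pearson r of 0.988 with the summed hormone level on the log2(CPM + 1) scale (n = 10, permutation p = 1e-05, the smallest that 100000 resamples give, adjusted over the 10 genes 0.0001) and a Spearman rho of 0.964 (permutation p = 4e-05). Without the 2 libraries farthest from the median hormone level its r was 0.964. SCG5 had a Pearson r of 0.967 (permutation p = 5e-05, adjusted 0.0002) and a Spearman rho of 0.915 (permutation p = 0.00075), and r was 0.846 without the 2 libraries. SCG3 had a Pearson r of 0.894 (permutation p = 0.00443, adjusted 0.00443) and a Spearman rho of 0.588 (permutation p = 0.0798), and r fell to 0.279 without the 2. VGF fell likewise from 0.911 (permutation p = 0.00264, adjusted 0.00293) to 0.286, with a Spearman rho of 0.60 (permutation p = 0.0725). The relation of these 2 genes therefore rests on those libraries. Without them r also fell for CHGB (0.941 to 0.612), PCSK1 (0.942 to 0.619) and PCSK1N (0.953 to 0.723). For CHGA, SCG2 and CPE it was 0.873, 0.874 and 0.805 without the 2. In the 7 shallow libraries r ranged from −0.25 to 0.63, at 1 to 37 counts a gene, and none passed (lowest permutation adjusted p = 0.755).

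**Figure D3:**
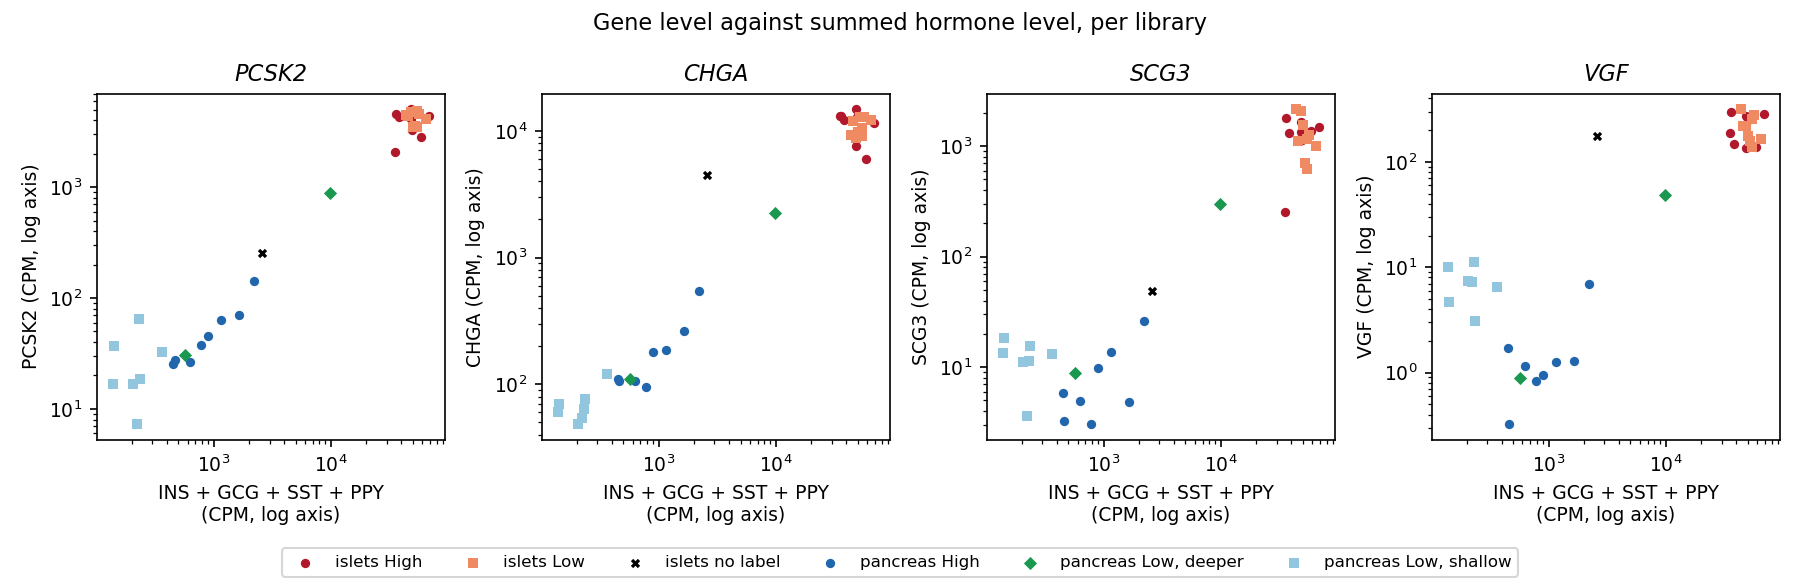
CPM of PCSK2, CHGA, SCG3 and VGF (y axes, log) against the summed CPM of INS, GCG, SST and PPY (x axes, log) in each library. Among the deeper pancreas libraries PCSK2 rises with the hormones (r = 0.988), SCG3 and VGF scatter more, and in the shallow libraries VGF lies above most deeper ones at 1 to 4 counts.

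In the 18 islet libraries r ranged from 0.10 to 0.95 and rho from −0.20 to 0.39. Without the islets of 12AS51 and 16CS60, the 2 farthest from the median hormone level, r ranged from −0.30 to 0.38. Without 12AS51 alone it ranged from −0.24 to 0.45, and without 15AS28 alone from 0.099 to 0.968. No rho passed (with the 10 relations over all pancreas libraries, 20 were adjusted together), so in islets the relation rests on the library of 12AS51. Within the 9 Low islet libraries SCG5 fell as the hormones rose (Pearson r = −0.878, permutation p = 0.00158, adjusted over the 10 genes 0.0158; −0.791 without 2 libraries), but its Spearman rho of −0.80 missed the threshold (permutation p = 0.0138, adjusted 0.138). None of the 10 passed within the 8 High libraries. The genes whose islet profile was most like the mean profile of the 10 were PITPNA (Pearson r = 0.805 over 18 libraries, given as a description), ADAM23 (0.804), PCDHGA4 (0.798), RRM1 (0.797) and TMEM131 (0.796). These profiles were log2 CPM on totals scaled by edgeR's TMM factors, while the hormone correlations above used plain CPM. On the TMM scale INS stood at rank 9431 of 14461 genes (r = −0.18), which cannot be set beside those correlations. In pancreas, on the TMM scale over 17 libraries and the 8 members tested there, the most alike genes were DIRAS3 (0.907), TTR (0.862), INS (0.862), RAB3C (0.856) and ENPP2 (0.841).

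High and Low pancreas libraries were compared next. At face value 3 of the 8 tested genes were lower in High and none was higher, where 21.5% of all 10634 tested genes were called lower and 18.8% higher. VGF and PCSK1N did not pass the filter on low counts. The groups of every member overlapped, where 0.226% of genes were higher and 1.09% lower without overlap. The 3 calls depended on a single Low library, that of 15LS30, and without it a different set of 3 genes was called, in the other direction. Both readings are given gene by gene below.

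SCG3 had 3.06, 3.25, 4.81, 4.96, 5.85, 9.83, 13.8 and 26.4 CPM in the High libraries, in ascending order. In the Low libraries it had 302 CPM in 15LS30, 8.95 CPM in 12FS161, and 3.64 to 18.6 CPM in the 7 shallow ones (median 13.1, at 1 to 8 counts). The log2 fold change of High over Low was −2.31 (SE 0.59, edgeR adjusted p = 0.00377). Without 15LS30 it was −0.68 (edgeR adjusted p = 0.203). PCSK1 had 5.51 to 57.1 CPM in High (median 11.5), 523 CPM in 15LS30 and 3.73 to 25.5 CPM in the other Low libraries. Its log2 fold change was −1.99 (SE 0.69, edgeR adjusted p = 0.0256), and without 15LS30 it was 0.07 (edgeR adjusted p = 0.912). CHGB had 6.54 to 51.7 CPM in High (median 12.1), 338 CPM in 15LS30 and 3.64 to 32.8 CPM in the other Low libraries. Its log2 fold change was −1.44 (SE 0.56, edgeR adjusted p = 0.043), and without 15LS30 it was 0.09 (edgeR adjusted p = 0.872). For these 3 genes the other Low libraries lay within or close to the range of the High ones. CHGB also lost its call without any of the High libraries other than 16CS60, and without the Low library of 12FS135 or 14HS7 (log2 fold changes −1.57 to −1.25, edgeR adjusted p = 0.0545 to 0.0888).

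SCG2 had 25.1 to 160.6 CPM in High (median 49.3), 1022 CPM in 15LS30, 31.8 CPM in 12FS161 and 4.64 to 26.4 CPM in the shallow libraries (median 18.2). CHGA had 95.9 to 542 CPM in High (median 144), 2263 CPM in 15LS30, 111 CPM in 12FS161 and 48.5 to 121 CPM in the shallow libraries (median 64.2). CPE had 15.5 to 82.5 CPM in High (median 32.9), 664 CPM in 15LS30, 21.9 CPM in 12FS161 and 5.60 to 26.4 CPM in the shallow libraries (median 12.3). In each of these genes most shallow libraries lay below every High library. With all libraries none passed: the log2 fold changes were −0.73 for SCG2 (edgeR adjusted p = 0.428), −0.37 for CHGA (0.642) and −0.95 for CPE (0.257). Without 15LS30 they were 1.60 (SCG2, edgeR adjusted p = 0.000746), 1.16 (CHGA, 0.00422) and 1.23 (CPE, 0.00602), and these were the 3 called higher, where 24.0% of 10419 tested genes were higher and 23.9% lower. DESeq2 on all libraries called the same 3 genes higher (log2 fold changes 1.497, 1.14 and 1.15) and none lower, where it called 22.0% of genes higher and 22.7% lower. By its default rule on extreme counts it had replaced the count of 15LS30 in each of the 8 genes, for example 4266 by 331 for CHGA, so this is not a second line of evidence beside leaving that library out.

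PCSK2 (−0.92, edgeR adjusted p = 0.228) and SCG5 (−1.35, 0.058) passed in neither reading, and without 15LS30 they were 0.76 and 0.36. SCG5 was called lower without 12FS161 (−1.61, edgeR adjusted p = 0.0251) or without the High library of 16CS60 (−1.64, 0.0269). PCSK1N was between 1.72 and 9.16 CPM in High and at or below 4 counts in all Low libraries but 15LS30, where it held 81. VGF was at 1 to 13 counts in High and 1 to 4 in all Low libraries but 15LS30. With no filter on low counts VGF was called lower in High (−2.42, edgeR adjusted p = 0.000862), where 29.2% of genes were lower and 15.4% higher, a result that rests on counts near the floor. VGF also passed the filter in 7 of the 17 fits that left out 1 library, each without a High library other than 16CS60, and was called lower in all 7 (−2.69 to −2.55, edgeR adjusted p = 0.00208 to 0.00295). All 7 held 15LS30 with its 92 counts.

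When the 7 shallow libraries were left out instead, the 8 High stood against 2 Low libraries, and no member and 0 of 13217 genes were called. With the summed hormone level as a covariate 5 of the 8 were called lower (CHGB, SCG3, SCG5, PCSK1 and PCSK2), where 16.6% of all tested genes were lower and 16.0% higher. Only SCG3 remained called lower when the leading digits of the animal code were a covariate, where 1.61% of genes were lower and 0.150% higher. The pancreas libraries of code 14 are all Low, and 15LS30 is the only Low one of codes 15 and 16. This covariate was not fitted without 15LS30. In animals with 1 label for both tissues SCG2 alone was called (1.35, higher), where 29.1% of genes were higher. That fit leaves out 15LS30, and all its Low libraries are shallow and all its High ones deeper. Depth and label cannot be told apart in it. The 16CS60 library was the highest of the High group for all 10 genes, with 542 CPM of CHGA against 95.9 to 264 in the other 7. Other measures moved with the groups. The 2 identifiers without a symbol took 6.01% to 14.5% of counts in High and 23.3% to 35.05% in the shallow libraries. Schwann and neural genes summed to 5.39 to 37.2 CPM in High (median 9.43) and 24.3 to 106 CPM in the shallow libraries (median 81.0), macrophage genes to 25.6 to 155 CPM (median 48.3) in High and 57.8 to 132 CPM (median 111) in the shallow ones, and duct genes to 1391 to 2888 CPM and 298 to 586 CPM. In 15LS30 the acinar sum was 89051 CPM and INS 7803 CPM. Their part in the results was not tested.

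Of the pathway lists in this comparison, 4 of 13 granule biogenesis genes were called higher and 3 lower. PTPRN had the largest change (−3.91), at 2 to 11 counts in each shallow library and 138 in 15LS30, and PTPRN2 (1.29) and RAB27A (1.26) were higher. Of 8 trimming genes 1 was higher and 2 lower, among them CTSL (−1.33) and RNPEP (−1.29), with CTSB higher by 0.73. Among 5 other convertases PCSK5 was lower (−1.01) and FURIN higher (0.84), and of 4 hormone genes SST was lower (−0.94). SST had a median of 10.8 CPM in High and 11.2 CPM in the shallow libraries, at 1 to 7 counts there. It stood at 90.7 CPM in 15LS30 and 38.0 CPM in 12FS161. The medians of the 4 lists lay between −0.13 and 0.44, against 0.07 for all tested genes and −1.15 for the 8 members. Without 15LS30 the members' median was 0.56, and that of all tested genes again 0.07.

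In islets no member differed between High and Low, and neither did any of the 12070 tested genes (0% called by edgeR and by DESeq2, with 257 and 297 genes at an unadjusted p under 0.05). The log2 fold changes of the 10 ran from −0.42 (CHGB, SE 0.29) to 0.21 (CHGA, SE 0.19), all with an edgeR adjusted p of 0.999. CHGA had a median of 12508 CPM in High (6017 to 14791) and 10612 CPM in Low (8741 to 12952). PCSK1 had medians of 1551 and 1845 CPM, and PCSK2 of 4232 and 4378 CPM. SCG2 (3699 and 3895), SCG5 (1127 and 1202) and CPE (2510 and 2590) were as close. The groups overlapped for all 10 genes. The errors set what could be seen: for PCSK2 and SCG5 the SE was 0.11, and for CHGB 0.29. No gene of the 4 pathway lists was called in islets.

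Each gene was then tested for whether its High over Low value differed between islets and pancreas. SCG3 (2.17, SE 0.70, edgeR adjusted p = 0.0141) and VGF (2.81, SE 0.56, edgeR adjusted p = 0.000355) had a larger High over Low value in islets than in pancreas, where 22.2% of 14337 tested genes did and 17.7% had a smaller one. For SCG3 this too rested on 15LS30, while VGF kept its call without that library. Without the pancreas library of 15LS30 SCG3 was at 0.38 (edgeR adjusted p = 0.572) and VGF at 1.55 (0.029), where 24.1% of genes were called higher. Then CHGA (−1.30), SCG2 (−1.998), PCSK2 (−1.15) and CPE (−1.66) had a smaller value in islets, where 23.4% of genes did. With the animal as a block only VGF was called (2.22), where 20.7% of genes were higher and 21.3% lower. In the shallow pancreas libraries VGF had counts of 1 to 4. It was also called without them, where the Low pancreas libraries were 15LS30 (92 counts) and 12FS161 (2 counts). In that fit 52 of 15210 genes were called higher and 9 lower.

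Among islet libraries, those of 15AS28 and 12AS51 did not differ evenly from the rest over the 10 genes. In 15AS28 (High), CHGA at 13000 CPM was 111% of the median of the other 16 libraries, PCSK1N was 99.1% and VGF 85.1%. In the same library PCSK1 at 246 CPM was 14.2% of that median, SCG3 19.3%, CPE 30.8% and SCG2 33.8%. CHGB (41.2%), SCG5 (45.02%) and PCSK2 (47.4%) lay between. Of the hormones, GCG stood at 176% and INS at 49.7%. With the 2 identifiers that took 38.0% of its counts left out of the totals, PCSK1 was still at 18.4%, while CHGA stood at 151%, PCSK1N at 130% and VGF at 111%. SCG2, SCG3, SCG5, PCSK1 and CPE were each the lowest of the 8 High libraries by a gap of 0.63 to 0.759 of the group's range on the log2(CPM + 1) scale.

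In 12AS51 the values depended on the total used. VGF stood at 79.3% of the median of the other 16, CHGA at 38.0%, CHGB at 28.1% and PCSK1N at 19.8%. SCG5 (6.81%), PCSK2 (5.90%), SCG3 (3.67%), CPE (3.59%), PCSK1 (2.86%) and SCG2 (2.48%) were far lower. With the 2 identifiers that took 74.6% of its counts left out of the totals, VGF stood at 253% and CHGA at 127%, above the median, CHGB at 89.3% and PCSK1N at 63.2%. On that scale SCG5 was at 21.6%, PCSK2 at 18.8%, SCG3 at 11.6%, CPE at 11.4%, PCSK1 at 9.04% and SCG2 at 7.91%. On either scale and in both libraries PCSK1, SCG3, SCG2 and CPE stood lower than CHGA, VGF, PCSK1N and CHGB, as the plot of the 2 libraries shows for the full totals. These are 2 libraries with no replicate of their state, and RNA quality was not measured in the files.

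**Figure D4:**
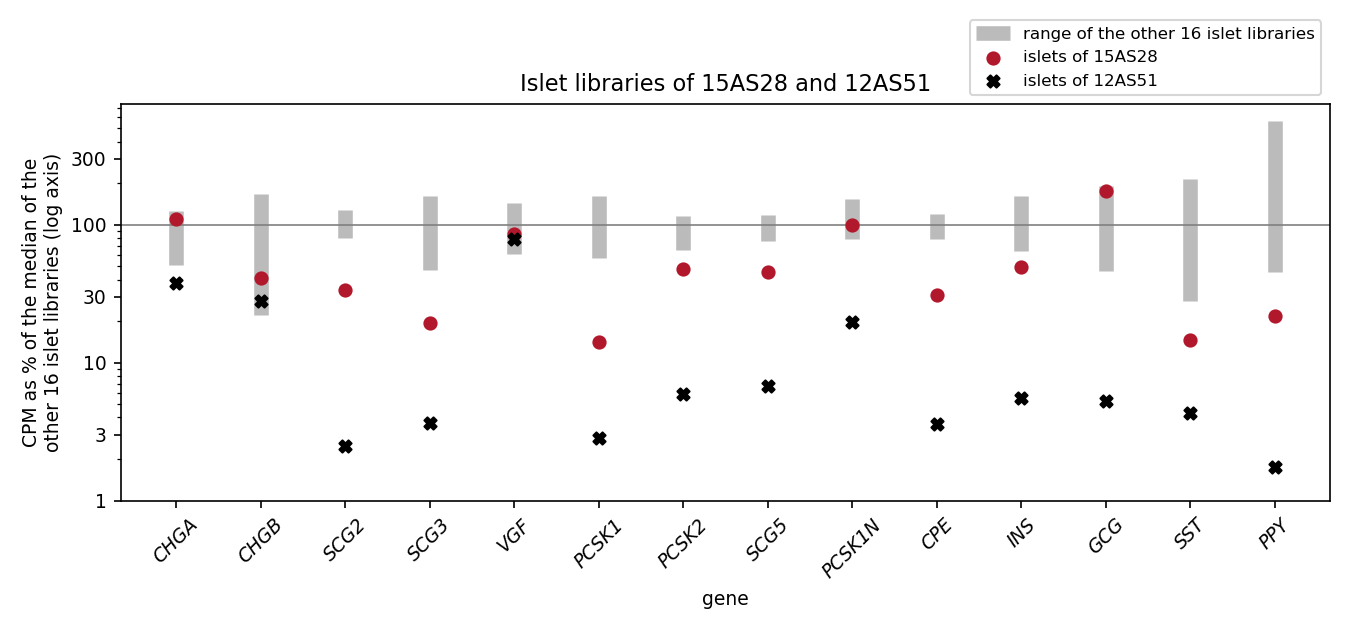
CPM in the islets of 15AS28 (circles) and 12AS51 (crosses) as a percent of the median of the other 16 islet libraries (log axis), with the range of those 16 as grey bars, for the 10 genes and 4 hormones. In 15AS28 CHGA (111%), VGF and PCSK1N lie within the grey range while PCSK1 (14.2%) and SCG3 (19.3%) lie far below it, and in 12AS51 only VGF and CHGB lie within it.

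CHGB differed among islet libraries by the leading digits of the animal code, a split chosen after its values were seen. The 5 islet libraries of animals whose code begins with 15 or 16 had 542, 932, 1015, 1367 and 1580 CPM. The 6 of code 14 had 2473 to 4078 CPM, and the 6 of codes 11 and 12, without 12AS51, had 1980 to 2816 CPM. The 5 did not overlap the other 12, and 0.820% of tested genes lay lower in these 5 without overlap. The other 9 members overlapped. All 6 animals of code 14 are Low for islets, so code and label are partly confounded. The High over Low value of CHGB changed from −0.42 to 0.43 without the animals of code 14 and to 0.17 with the code as a covariate.

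**Figure D5:**
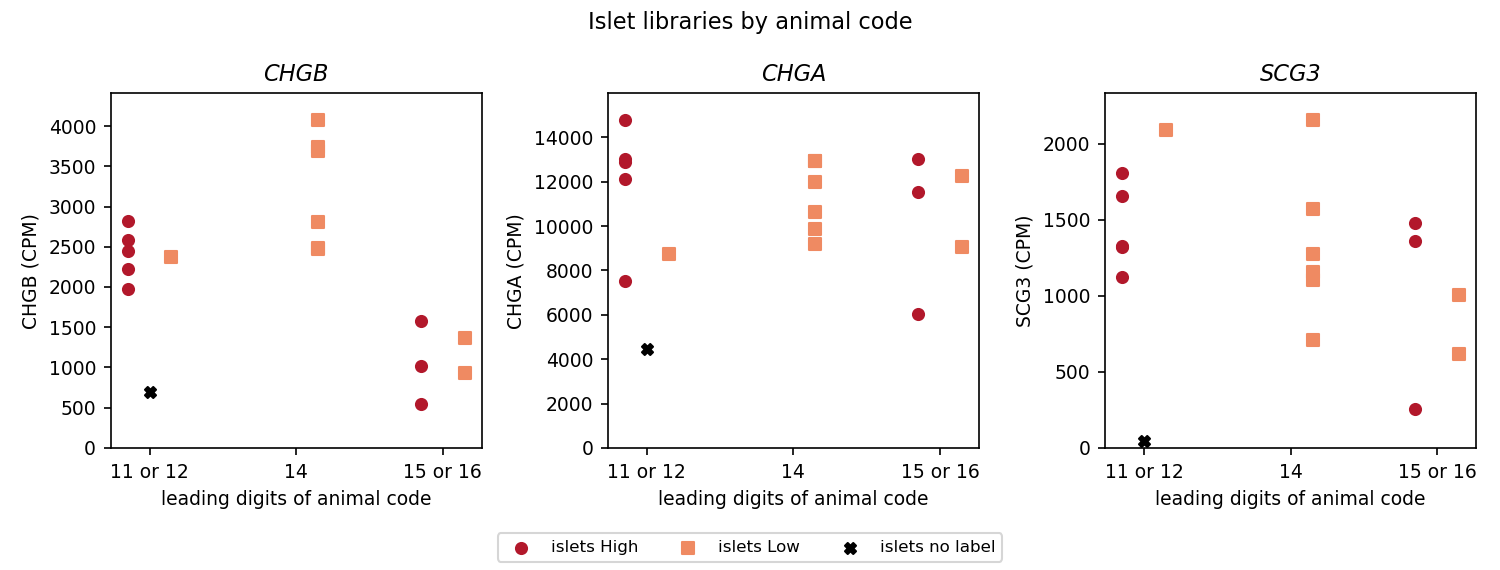
CPM of CHGB, CHGA and SCG3 in the islet libraries by the leading digits of the animal code, with the density label as colour and shape. For CHGB the 5 libraries of codes 15 and 16 (542 to 1580 CPM) lie below the other labelled libraries (1980 to 4078 CPM), which is not so for CHGA or SCG3.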

How the data were processed

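The authors deposited raw read counts for each Ensembl gene in 1 table a tissue, and the counts were used as they are. Named in the submitters' processing notes are Subread, HISAT2 2.0.2, FastQC, edgeR and the build susScr3. How reads were counted, with what strand setting and annotation, is not given in the sources used here. The animal code and the tissue assigned each column to its sample, and 1 column that matched no sample was not used. For 2 islet samples (11KS28 and 12AS51) the source name reads pancreas, and the title was followed. Symbols came from a table that names 14857 of the 25880 identifiers. RefSeq's table of Sscrofa11.1 was used for gene overlap alone.

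Tests across genes used R 4.3.3 and edgeR 4.0.16 (filterByExpr, TMM scaling, robust quasi-likelihood test, two-sided, Benjamini-Hochberg adjustment over all tested genes, threshold 0.05). The SE is the absolute log2 fold change divided by the square root of F. Alternatives were other scalings, no filter, DESeq2 1.42.0, limma 3.58.1, covariates and left-out libraries. Single values were tested by permutation (scipy 1.17.1, exact for High against Low, 100000 resamples otherwise). Log2 ratios used counts plus 0.5. The test was tried on simulated counts with known changes, and larger changes were recovered more often than smaller ones.

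The members, lists and tests were chosen with earlier results of these data known. All members are described. Of each list up to 3 called genes with the largest change are named, and the 5 genes with the highest correlation to the members' mean profile. FURIN and MBTPS1 in islets against pancreas are named outside this rule. The labels give animal codes, which pair libraries across tissues. Deviations of the 16 pairs from their group means correlated with a median of −0.01 (−0.42 to 0.22), and the own animal was the best match in 4 of 16. Among 128 pairs of libraries of the same group 0 were identical.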

Additional observations from a re-analysis of the deposited data

Results flagged for a closer look

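Within each density group of each tissue, the highest and the lowest library of every member were tested for their gap to the nearest other library on the log2(CPM + 1) scale. Of 40 groups 16 had such a library, where chance alone gives about 1 in 20 for a single group. These 16 came from 3 libraries and are not independent of each other. The 1 in 20 is therefore no measure of how unusual 16 is, and no share over all genes is given here.

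The Low pancreas of 15LS30 was far above the other 8 Low libraries in 9 of the 10 genes. It held 2263 CPM of CHGA (48.5 to 121 in the others), 338.5 CPM of CHGB, 1022 CPM of SCG2, 302.4 CPM of SCG3, 232.9 CPM of SCG5, 523.1 CPM of PCSK1, 888.6 CPM of PCSK2, 42.97 CPM of PCSK1N and 663.7 CPM of CPE. VGF, at 48.8 CPM there, was also its group's highest but did not exceed the limit.

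The High islets of 15AS28 were far below the other 7 High libraries in 5 genes: 1312 CPM of SCG2 (3115 to 4990 in the others), 255.7 CPM of SCG3, 535.3 CPM of SCG5, 245.9 CPM of PCSK1 and 817.3 CPM of CPE. The High pancreas of 16CS60 was above its group with 45.82 CPM of SCG5 (5.51 to 14.0 in the others) and 7.008 CPM of VGF (0.325 to 1.72).

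The High over Low difference was larger in islets than in pancreas for SCG3 (2.167 on the log2 scale) and VGF (2.806) by edgeR's test of the difference itself. Without the pancreas of 15LS30 the values were 0.38 and 1.55, and only VGF passed.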

How the results depend on the processing

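In islets against pancreas, all 10 genes kept direction and call in the 9 alternative fits. The animal as a block kept all 10, and log2 fold changes over all fits lay between 4.26 and 6.64. Fits that leave out 15LS30, 12AS51 or 15AS28, use the animal code as a covariate, or set members against hormone counts were chosen after seeing the data.

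In High against Low in pancreas, the count called lower was 3. It was 0 by DESeq2, 0 without the shallow libraries, 0 without these and 15LS30, 0 in animals labelled alike in their 2 tissues (where 1 was higher, SCG2 at 1.35), 5 with the hormone covariate and 1 with the animal code covariate. Leaving out 1 library gave 0 to 4 lower and 0 to 3 higher, and DESeq2 gave 3 higher. Ranges over libraries left out, from the lowest value to that without Low replicate 9 (15LS30), were −0.59 to 1.16 for CHGA, −1.66 to 0.094 for CHGB, −0.92 to 1.60 for SCG2, −1.64 to 0.36 for SCG5, −2.35 to 0.070 for PCSK1, −1.12 to 0.76 for PCSK2 and −1.15 to 1.23 for CPE. DESeq2 turned CHGA (1.14), CHGB (0.13), SCG2 (1.497), SCG5 (0.36), PCSK1 (0.10), PCSK2 (0.76) and CPE (1.15). Without the shallow libraries and 15LS30 (1 Low library, assumed to vary like the High ones), values were 1.15 for CHGA, 0.63 for CHGB, 1.31 for SCG2, 0.28 for SCG3, 1.65 for SCG5, 0.32 for PCSK1, 1.16 for PCSK2 and 1.13 for CPE. With same-label animals, whose Low pancreas libraries are all shallow, CHGA was 0.71, PCSK2 0.15 and CPE 0.72. Upper-quartile scaling moved the median of all genes from 0.07 to −0.11, with 1467 genes higher and 2772 lower against 1998 and 2285. In the test between tissues it moved the median from 0.00 to 0.26, with 3995 higher and 1670 lower against 3183 and 2535.

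In islets no alternative called a member. Signs of values near 0 turned with same-label animals (CHGA −0.10, SCG2 0.035, PCSK1 0.15, PCSK2 0.064), without code 14 (CHGB 0.43, SCG5 0.14, PCSK1N 0.28) and with the code covariate (CHGB 0.17, SCG5 0.049, PCSK1N 0.38). With 1 library left out SCG2 ranged from −0.12 to 0.0042, SCG3 from −0.043 to 0.18, SCG5 from −0.053 to 0.045 and PCSK1N from −0.12 to 0.066.

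Between tissues, the animal as a replicate block (limma-voom) called 1 higher in place of 2, and turned CHGA (−0.61), SCG2 (−0.78), PCSK2 (−0.23) and CPE (−0.43). SCG3 then missed the threshold (1.57, adjusted p = 0.0567). Other settings added calls: PCSK1N with relative log expression scaling (1.27), upper-quartile scaling (1.38) and DESeq2 (1.18), and PCSK1 without the shallow libraries (3.36). The fit without the shallow libraries called 52 of 15210 genes higher and 9 lower, and SCG3 and VGF kept their calls in it. Its only Low pancreas libraries were the 2 deeper ones, with 35 counts of PCSK1 in replicate 2 and 986 in replicate 9. Without Low replicate 9, 1 was higher and 4 lower, at −1.30 for CHGA, −0.85 for CHGB, −1.998 for SCG2, −0.71 for SCG5, −0.54 for PCSK1, −1.15 for PCSK2, −0.19 for PCSK1N and −1.66 for CPE.

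The ratio of PCSK1N to PCSK1 between tissues passed with a pseudocount of 2 (−1.22), with the animal as a block (−1.23) and without 12AS51 and 15AS28 (−1.30), and that of CHGA to CHGB without shallow libraries (−0.93) and with the block (−0.61). In pancreas, High against Low, PCSK1 to PCSK2 (−1.05) and CHGA to CHGB (1.24) passed with a pseudocount of 2. Signs turned without shallow libraries for PCSK1 to PCSK2 (0.27) and SCG5 to PCSK2 (0.26) between tissues and for PCSK1N to PCSK1 (1.57) and SCG5 to PCSK2 (0.18) in pancreas, and for PCSK1 to PCSK2 with the block (0.11) and without 12AS51 and 15AS28 (0.13).

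Per hormone count, SCG2 (0.31) and CPE (0.43) passed without 12AS51 and 15AS28, CPE (0.42) also without 15LS30, and CHGB missed with the block (1.17). With INS alone SCG2 was −0.041, PCSK1 0.60 and PCSK2 0.33. With all pancreas libraries the values were 0.60 for CHGB, 0.17 for SCG3, 0.044 for SCG5, −0.43 for VGF, 0.082 for PCSK1, 0.12 for PCSK2 and −0.91 for PCSK1N, and none passed. Where these fits differ, the cause was not tested. Depth limits the shallow libraries, in which a member has 1 to 37 counts and VGF and PCSK1N are at the floor in 6 of 7.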
